A study of Mus musculus with 7 samples.

Results

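Forkhead transcription factors were examined in embryonic neurons of the arcuate nucleus, a feeding centre of the ventral hypothalamus. They were taken by name, as every gene in the deposited table called Fox followed by a letter from a to s and a number, which gave 32 of 18335 genes, of which 31 are described. RNA was measured in mouse embryos at E15.5, an embryonic stage counted in days, in fluorescently sorted Pomc neurons (4 libraries) and Npy neurons (2 libraries used). Pomc neurons restrain appetite through peptides cut from proopiomelanocortin. Npy neurons promote feeding, in part through neuropeptide Y. Per the labels, the arcuate nuclei were dissected and the neurons dissociated, and each library was made from 1 ng of total RNA. Reporter, strain, sex and number of embryos per library are not stated in the sources used here. Nothing says that replicates came from separate litters, so p-values measure only the variation among these libraries, which may be technical. A further column, Npy replicate 3, was left out because it is calculated from the other Npy columns. In each of the 15223 genes where either of these is above 0 it is their mean times a whole percent, from 95 to 105, to within 1e-04.

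All forkhead proteins bind DNA through a winged-helix domain, the forkhead domain, and most recognise a core of the form GTAAACA. The family spans regulators of metabolism, cell division, cilia and regional identity. FOXO proteins are kept out of the nucleus when insulin activates the kinase AKT. In the hypothalamus of adult rodents, nuclear FOXO1 is known to repress Pomc and to promote Agrp transcription. FOXP proteins are repressors that act as dimers with each other and recruit the NuRD chromatin complex. FOXM1 drives mitotic genes and FOXJ1 drives the formation of motile cilia.

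The levels were taken as TPM (an abundance corrected for gene length and for the total of the library), a unit that the table does not state. Sums, shares and rankings across genes rest on this. TPM keep no record of read depth, which is unknown here, and a 0 says no more than that the table lists the gene at 0. Pomc, which names the sorted cells, stood at 770, 352, 397 and 553 TPM in the Pomc libraries, against 24.0 and 59.4 TPM in Npy neurons. Npy stood at 152, 2.11, 81.0 and 54.2 TPM in the Pomc libraries, against 728 and 513 TPM in Npy neurons. All 11 genes of an arcuate identity list were tested. Of these 6 passed, all higher in Pomc neurons (Pomc, Nkx2-1, Tbx3, Prdm12, Nhlh2 and Sox14), where 0.289% of all tested genes did. At an unadjusted p under 0.05 in limma, 3 others had lower values in Pomc neurons (Npy, Otp and Isl1). Of all tested genes 7.36% met this in either direction. Otp had 345 to 682 TPM in the Pomc libraries, against 771 and 957 TPM in Npy neurons (limma adjusted p = 0.418). Isl1 had 365 to 465 TPM against 637 and 601 TPM (limma adjusted p = 0.461). The directions of Pomc and Npy follow the sort, and the list was chosen with earlier results of these data known. Tbx3 had 245 to 301 TPM in the Pomc libraries, against 99.2 and 141 TPM in Npy neurons (limma adjusted p = 0.0397). Sox14 had 105 to 140 TPM in the Pomc libraries, against 4.38 and 0 TPM in Npy neurons, Nhlh2 had 90.3 to 161 TPM against 1.82 and 3.29 TPM, and Prdm12 had 126 to 295 TPM against 1.56 and 16.4 TPM. The number that passed was 3 without Pomc replicate 1 or 3, 3 without the filter on low values, 4 with a pseudocount of 0.1 and 2 without a trend. Without Pomc replicate 2 it was 3 with higher values in Pomc neurons and 1, Npy, with lower values. The number of genes above 0 ranged from 12493 to 14656 in the Pomc libraries and was 14933 and 12922 in the Npy libraries. Short RNA genes took 10.8 to 13.1% of the Pomc libraries and 14.1 and 17.3% of the Npy libraries, a difference in composition that ran with the groups. In bulk libraries such as these, fewer cells of a type and less RNA per cell cannot be told apart.

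Of the 31 forkhead genes described, 26 were above 0 in at least 1 of the 6 libraries, 15 were above 0 in all 6, and 5 (Foxc2, Foxf1, Foxf2, Foxl2 and Foxn4) were listed at 0 throughout. Together they held 611, 621, 582 and 553 TPM in the Pomc libraries, against 585 and 552 TPM in Npy neurons, so the summed level overlapped between the groups. The test was limma on log2(TPM + 1) over all genes that reached 1 TPM in at least 2 libraries, and 18 of the 31 met that filter. None of the 18 passed an adjusted p (Benjamini-Hochberg) of 0.05 in limma, where 0.412% of all 13845 tested genes did (0.289% higher and 0.123% lower in Pomc neurons). At an unadjusted p under 0.05 there were 4, namely Foxn2, Foxp2, Foxp4 and Foxo1, all with higher values in Pomc neurons, where 7.36% of all tested genes met this. The Pomc and Npy libraries did not overlap in 5 of the 18, the same 4 and Foxm1, beside 15.9% of all tested genes. Of these 5, 4 had higher values in Pomc neurons, beside 8.05% of all tested genes, and 1 had lower values, beside 7.86%. Over the 18, 6 log2 fold changes were above 0 and 12 below, with a median of -0.25 beside 0.02 for all tested genes. Without Foxd1, which met the filter through the Pomc libraries alone, 5 were above 0 and 12 below, with a median of -0.36. With 4 against 2 libraries an exact two-sided permutation test cannot give a p under 0.0667.

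**Figure D1:**
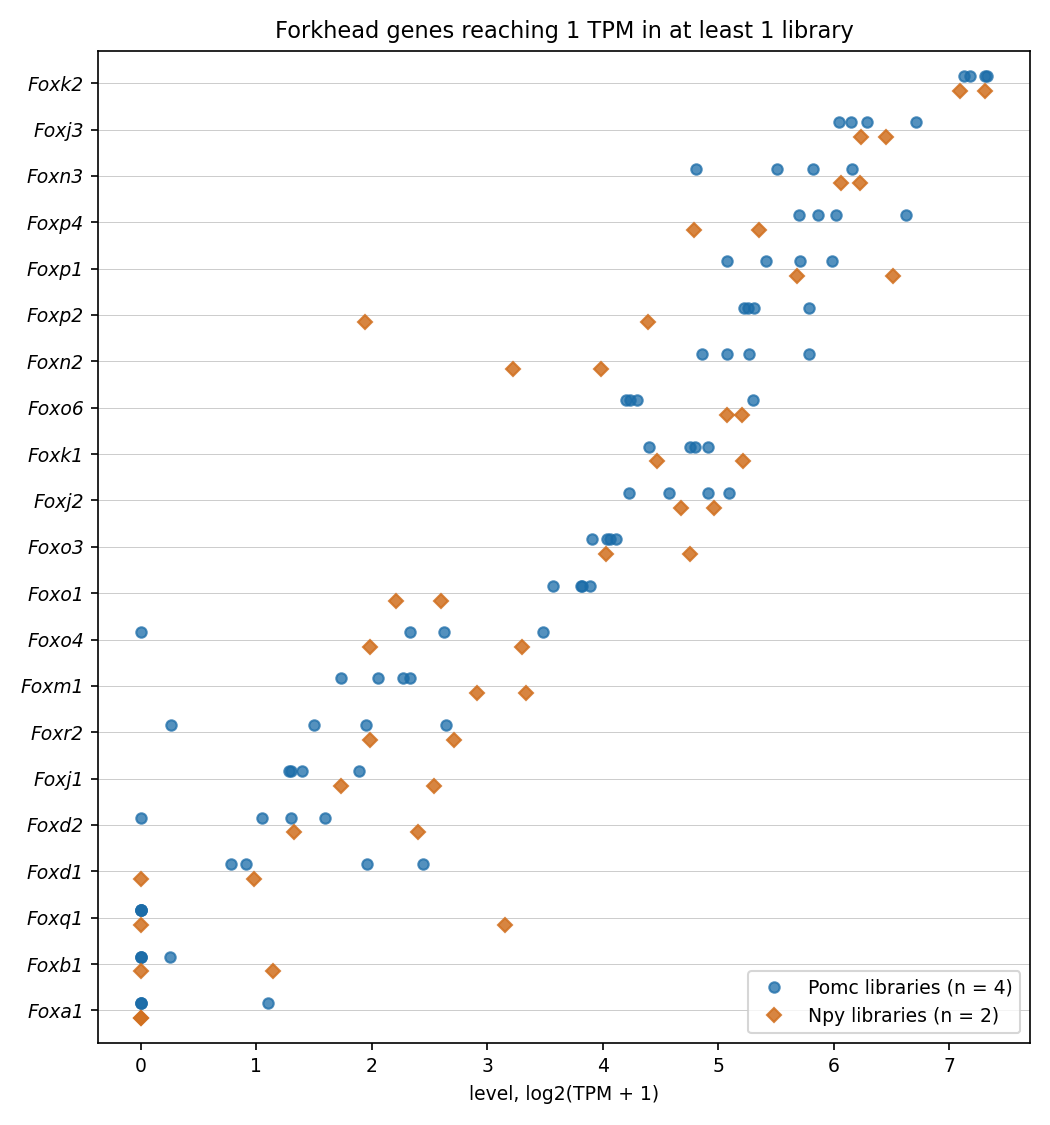
Levels of 21 forkhead genes that reached 1 TPM in at least 1 library, as log2(TPM + 1) on the x axis, 1 point per library, with the 4 Pomc libraries (blue circles) above the 2 Npy libraries (orange diamonds) of each gene. Foxk2 is the highest in all 6 libraries, the Pomc points of Foxp2, Foxn2, Foxp4 and Foxo1 all lie to the right of their Npy points, and those of Foxm1 all lie to the left.

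Promoter sequences from RefSeq (GRCm38.p6, from 250 bases before to 50 bases after a gene start) were found for 18 of the 31 genes, with 21 starts in all. Shown here are those of Foxo1 and Foxp4, both with every Pomc library above every Npy library, and that of the Foxp1 start at which the short forkhead core TAAACA was found more than 1 time. Foxo1 is shown at chr3:52268087-52268386 on the plus strand, Foxp4 at chr17:47924583-47924882 and Foxp1 at chr6:99266466-99266765 on the minus strand, each 5′ to 3′ along its gene, with TAAACA or its reverse complement TGTTTA in capitals.
Foxo1: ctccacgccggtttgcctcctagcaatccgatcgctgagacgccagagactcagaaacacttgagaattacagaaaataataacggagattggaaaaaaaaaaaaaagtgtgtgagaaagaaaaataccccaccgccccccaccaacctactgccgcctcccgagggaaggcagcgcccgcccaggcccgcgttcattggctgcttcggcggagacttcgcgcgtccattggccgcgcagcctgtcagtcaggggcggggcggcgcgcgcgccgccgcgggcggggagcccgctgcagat
Foxp4: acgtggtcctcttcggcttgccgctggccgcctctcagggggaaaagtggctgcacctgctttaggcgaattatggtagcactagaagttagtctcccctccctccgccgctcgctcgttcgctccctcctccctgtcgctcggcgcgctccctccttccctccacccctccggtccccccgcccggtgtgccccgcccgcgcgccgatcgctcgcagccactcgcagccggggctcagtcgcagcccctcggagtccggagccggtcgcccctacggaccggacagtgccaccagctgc
Foxp1: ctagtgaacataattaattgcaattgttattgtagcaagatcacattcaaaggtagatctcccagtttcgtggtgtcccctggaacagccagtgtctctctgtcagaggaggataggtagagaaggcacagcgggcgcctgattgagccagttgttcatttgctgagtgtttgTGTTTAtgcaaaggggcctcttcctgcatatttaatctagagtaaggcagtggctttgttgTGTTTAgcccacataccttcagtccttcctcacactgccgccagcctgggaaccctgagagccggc
The Foxo1 and Foxp4 windows hold 31 and 33 CpG pairs, and the Foxp1 window holds 5, beside a median of 7 over all 32851 promoters in the table. TAAACA on either strand occurs 2 times in the Foxp1 window and in 5 of the 21 forkhead promoters, among them all 3 starts of Foxp1, beside 13.4% of all promoters. The longer GTAAACA, which contains TAAACA, occurs in 1 of the 21 (Foxa1) and in 3.65% of all promoters. The table does not separate transcripts by start, so the levels of the 3 Foxp1 starts are not known.

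FOXP genes made up 23.5 to 28.3% of the forkhead transcripts in the Pomc libraries and 25.7 and 14.5% in the Npy libraries. Foxp2, in humans a gene linked to speech (mouse chromosome 6, 14901349 to 15441977, GRCm38), had 36.3, 38.6, 37.4 and 54.3 TPM in the Pomc libraries, against 19.95 and 2.85 TPM in Npy neurons. Every Pomc library lay above both Npy libraries, which themselves lay far apart. Its log2 fold change was 2.23 ± 0.60 (SE, limma adjusted p = 0.31). Without Npy replicate 1 it was 3.45 with a limma adjusted p of 0.0171, and without Npy replicate 2 it was 1.01 with an adjusted p of 0.999. In these fits the lone Npy library is assumed to vary like the Pomc libraries, so their p-values do not measure variation among Npy libraries. Foxp4 (chromosome 17, 47867133 to 47924645) had 97.7, 63.9, 57.4 and 51.0 TPM in the Pomc libraries, against 39.9 and 26.6 TPM in Npy neurons. Again the groups did not overlap, with a log2 fold change of 0.98 ± 0.32 (limma adjusted p = 0.462).

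Foxp1, which controls the identity of spinal motor neurons (chromosome 6, 98925338 to 99522721), had values in the other order. It stood at 32.7, 62.4, 41.7 and 51.2 TPM in the Pomc libraries, against 90.3 and 50.4 TPM in Npy neurons, so that the groups overlapped (log2 -0.55 ± 0.34, limma adjusted p = 0.8). The higher Foxp1 value was that of Npy replicate 1, where 9 genes of telencephalic neurons summed to 150 TPM, against 6.59 to 19.4 TPM in the Pomc libraries and 20.2 TPM in Npy replicate 2. Of these, Neurod6 had 53.3 TPM in Npy replicate 1 and was listed at 0 in the other 5 libraries. Emx1 and Emx2 were likewise above 0 in Npy replicate 1 alone, at 3.44 and 0.887 TPM. The part of such cells in the Foxp1 values was not tested. Of the summed TPM of these 3 FOXP genes, Foxp1 took 19.6 to 37.8% in the Pomc libraries and 60.1 and 63.1% in the Npy libraries. Foxp2 took 21.8 to 34.7% in the Pomc libraries, against 13.3 and 3.57% in the Npy libraries. The share of Foxp4 was 32.6 to 58.6% in the Pomc libraries and 26.6 and 33.3% in the Npy libraries, and only this share overlapped among the 3. These shares were computed after the single values had been seen and were not tested. Foxp3, the factor of regulatory T cells, reached at most 0.506 TPM, in Pomc replicate 3, and its exons overlap those of Ccdc22 and Ppp1r3f on the opposite strand.

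The partners of FOXP proteins, a list of NuRD subunits, cofactors and related factors, had 27 tested genes of 28. Nkx2-1, a homeobox factor required for hypothalamic development, passed and was higher in Pomc neurons, with 272, 358, 277 and 182 TPM against 46.5 and 80.1 TPM in Npy neurons (log2 2.10 ± 0.30, limma adjusted p = 0.0211). Its call ended without Pomc replicate 1, 2 or 3 or Npy replicate 1 (adjusted p 0.0512 to 0.0819), without the filter on low values (0.0848) and without a trend (0.15). The other 26 did not pass, and the list's log2 fold changes had a median of 0.00. The NuRD genes Hdac2 and Chd4, the highest of the list, averaged 556 ± 27.0 and 525 ± 52.2 TPM in Pomc neurons (SD, n = 4). In the Npy libraries Hdac2 stood at 552 and 451 TPM and Chd4 at 537 and 471 TPM.

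Among the FOXO genes, Foxo1 had the largest log2 fold change (chromosome 3, 52268336 to 52353221). It stood at 13.1, 13.1, 13.8 and 10.9 TPM in the Pomc libraries, against 5.07 and 3.63 TPM in Npy neurons. The Pomc libraries lay close together and all above the Npy libraries, yet the log2 fold change of 1.37 ± 0.50 did not pass (limma adjusted p = 0.564). Its 95% interval ran from 0.23 to 2.51. In the annotation 674 bases of Foxo1 exons overlap an antisense gene that is not in the table, and the sources used here do not say whether the counting used strand. Foxo1 took 18.5 to 25.8% of the FOXO transcripts in the Pomc libraries, against 7.78 and 5.55% in the Npy libraries.

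The other FOXO genes had no such separation. Foxo3, which maintains neural stem cells, stood at 14.0, 16.4, 15.46 and 15.8 TPM in the Pomc libraries, against 15.4 and 26.0 TPM in Npy neurons (log2 -0.36 ± 0.41, limma adjusted p = 0.883). Foxo6, the FOXO gene enriched in brain, stood at 38.5, 17.4, 18.6 and 17.8 TPM in the Pomc libraries, against 35.9 and 32.7 TPM in Npy neurons. Pomc replicate 1 thus lay with the Npy libraries and apart from its own group, and the log2 fold change was -0.63 ± 0.41 (limma adjusted p = 0.808). Foxo4 stood at 5.17, 4.04, 10.2 and 0 TPM in the Pomc libraries, against 8.87 and 2.97 TPM in Npy neurons, with the groups fully overlapping. Summed, the 4 FOXO genes reached 44.5 to 70.7 TPM in the Pomc libraries, against 65.2 and 65.4 TPM in Npy neurons.

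**Figure D2:**
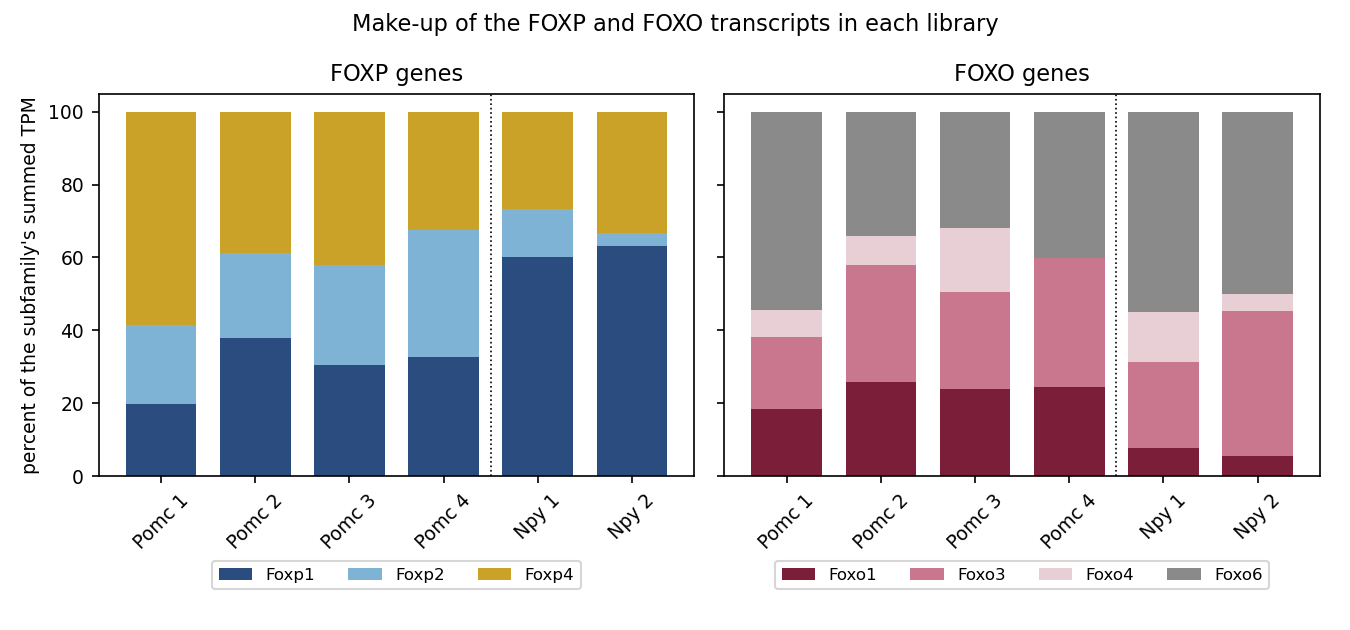
Share of each gene in the summed TPM of Foxp1, Foxp2 and Foxp4 (left) and of the 4 FOXO genes (right), in percent, 1 bar per library, with the Pomc libraries left of the dotted line and the Npy libraries right of it. Foxp1 takes 19.6 to 37.8% in the Pomc bars and over 60% in the Npy bars, and Foxo1 takes 18.5 to 25.8% in the Pomc bars and under 8% in the Npy bars.

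No gene of a list of the insulin pathway and of other FOXO regulators passed. The list runs from the receptor gene Insr to the kinases and 14-3-3 proteins and also holds genes such as Crebbp, Ep300, Sirt1 and Mapk8. All 33 listed genes were tested with limma, and none had an unadjusted p under 0.05. Ywhae and Ywhaz, 14-3-3 genes and the highest of the list, averaged 1838 ± 281 and 1122 ± 133 TPM in Pomc neurons (SD, n = 4). In the Npy libraries Ywhae stood at 1619 and 1558 TPM and Ywhaz at 1040 and 1108 TPM. The median log2 fold change was 0.14. Of 28 tested FOXO target genes none passed either. Beside 7.36% of all tested genes, 3 of the 28 had an unadjusted p under 0.05. These were Cat, which encodes catalase, with higher values in Pomc neurons (57.6 ± 10.8 TPM against 33.7 and 25.4 TPM in Npy neurons, limma adjusted p = 0.399), and, with lower values, the repressor gene Bcl6 (2.79 ± 0.82 TPM against 9.32 and 8.68 TPM, limma adjusted p = 0.65) and Npy itself, whose direction follows the sort. Cpe, a peptide processing enzyme whose gene FOXO1 represses in Pomc neurons of adult mice, stood at 669, 431, 489 and 597 TPM in the Pomc libraries, against 476 and 494 TPM in Npy neurons. Agrp was low, at 1.03, 3.67, 6.82 and 0 TPM in the Pomc libraries, against 5.53 and 1.75 TPM in Npy neurons.

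FOXK, FOXJ2, FOXJ3 and FOXN factors are expressed in many tissues and made up 59.1 to 64.6% of the forkhead transcripts in the Pomc libraries and 59.5 and 68.9% in the Npy libraries. Foxk2, a repressor of autophagy genes together with Foxk1 (chromosome 11, 121259990 to 121309896), was the highest forkhead gene in every library. Its level was 160, 139, 158 and 144 TPM in the Pomc libraries, against 135 and 158 TPM in Npy neurons, above 93.1% of all genes by its mean. The groups overlapped (log2 0.04 ± 0.18, limma adjusted p = 0.975), and the 95% interval of the log2 difference, -0.36 to 0.43, was the narrowest of the 18 tested genes. Foxk1 stood at 29.2, 20.1, 26.8 and 26.0 TPM in the Pomc libraries, against 21.2 and 36.2 TPM in Npy neurons. Foxj3, which in muscle activates Mef2c, stood at 70.2, 104, 65.2 and 77.2 TPM in the Pomc libraries, against 86.4 and 74.3 TPM in Npy neurons. Foxj2 stood at 29.1, 17.7, 22.8 and 33.1 TPM in the Pomc libraries, against 24.6 and 30.2 TPM in Npy neurons. In each of these 4 genes at least 1 Npy library lay within the Pomc range.

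The FOXN genes Foxn2 and Foxn3 had values in opposite orders. Foxn2, a relative of the checkpoint suppressor gene Foxn3 (chromosome 17, 88440711 to 88490533), had 28.0, 54.0, 32.8 and 37.6 TPM in the Pomc libraries, against 14.8 and 8.35 TPM in Npy neurons. The groups did not overlap. The log2 fold change of 1.64 ± 0.40 had the lowest unadjusted p of the 18 tested forkhead genes (limma adjusted p = 0.23). Foxn3 stood at 44.4, 55.6, 70.5 and 26.9 TPM in the Pomc libraries, against 65.9 and 74.0 TPM in Npy neurons. Pomc replicate 3 lay above the lower Npy library, and the log2 fold change was -0.57 ± 0.36 (limma adjusted p = 0.807).

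**Figure D3:**
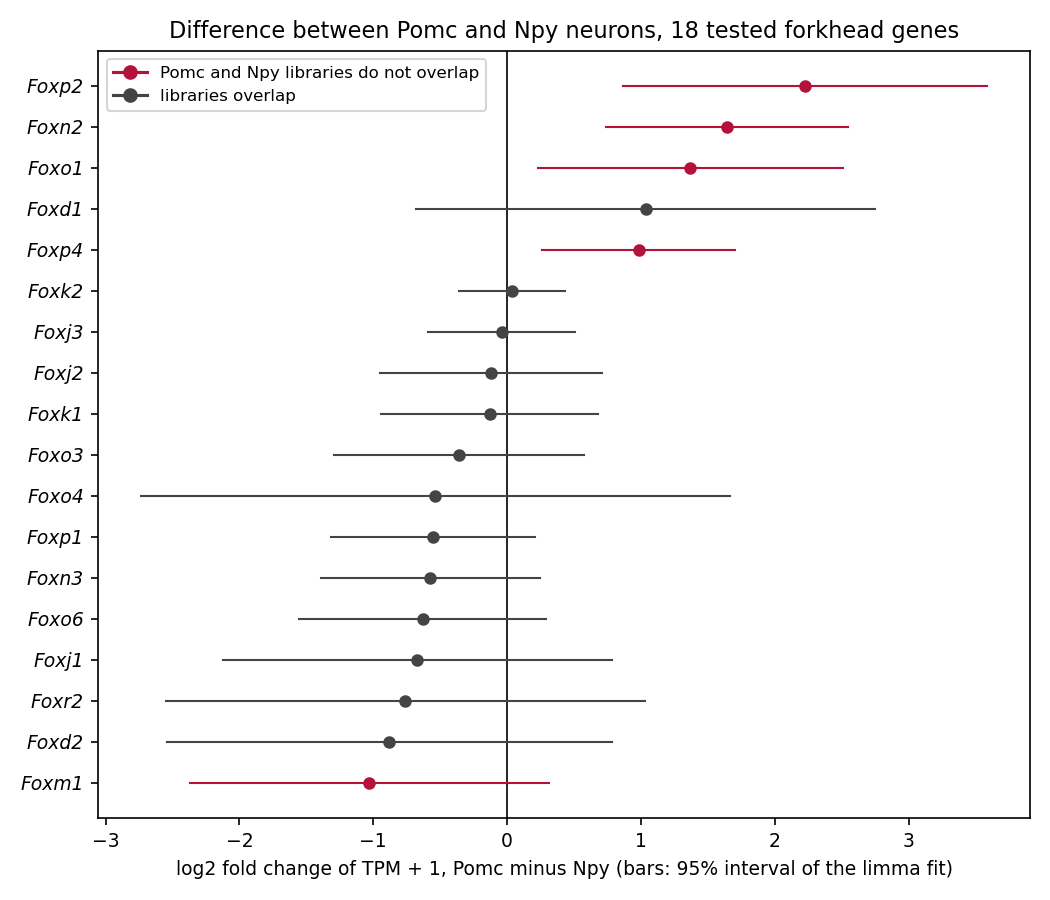
Log2 fold change of TPM + 1, Pomc minus Npy, of 18 tested forkhead genes, with the 95% interval of the limma fit as a bar and genes whose libraries do not overlap in red. The intervals of Foxp2, Foxn2, Foxo1 and Foxp4 lie above 0, before any adjustment for the number of genes tested.

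Forkhead genes of brain regions were low. Foxd1, a gene of the diencephalic neuroepithelium and the temporal retina, stood at 2.89, 4.45, 0.715 and 0.881 TPM in the Pomc libraries, against 0.970 and 0 TPM in Npy neurons, and the groups overlapped (limma adjusted p = 0.828). It met the filter through the Pomc libraries alone. Foxd2 stood at 2.01, 1.47, 0 and 1.07 TPM in the Pomc libraries, against 1.51 and 4.29 TPM in Npy neurons. Foxb1, a gene of the mammillary body, reached 0.193 TPM in Pomc replicate 2 and 1.21 TPM in Npy replicate 1 and was listed at 0 in the other 4 libraries. Of its exon bases 418 overlap the antisense gene B230323A14Rik, which had 4.23 TPM in Pomc replicate 2 and was listed at 0 in the other libraries. A list of 9 other mammillary body genes summed to 64.9 to 165 TPM in the Pomc libraries, against 30.6 and 24.8 TPM in Npy neurons, with Lmx1b and Irx5 listed at 0 in all 6. Of the 4 tested, the homeobox gene Lhx5 passed and was higher in Pomc neurons (log2 4.54, limma adjusted p = 0.0101), a call that ended without Pomc replicate 1 or 3 (adjusted p 0.0509 and 0.0523) and with a pseudocount of 0.1 (0.0518). The related Lhx1 had values in the other order, with 1.39, 0, 1.03 and 0 TPM in the Pomc libraries, against 9.07 and 5.21 TPM in Npy neurons (log2 -2.41, limma adjusted p = 0.375). Nkx2-4 and Sim1 did not pass either. Foxa1, which acts in the floor plate and in dopamine neurons, was seen only in Pomc replicate 2, at 1.14 TPM. Floor plate and midbrain genes summed to 116 to 139 TPM in the Pomc libraries, against 131 and 135 TPM in Npy neurons, with Lmx1a and Lmx1b listed at 0 throughout. Foxh1, a partner of SMAD proteins, had 0.301 TPM in Npy replicate 1 only.

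Foxm1, the activator of mitotic genes (chromosome 6, 128362967 to 128376146), had 3.16, 4.02, 2.33 and 3.83 TPM in the Pomc libraries, against 9.12 and 6.53 TPM in Npy neurons. All Pomc libraries lay below both Npy libraries, at a log2 fold change of -1.03 ± 0.60 that did not pass (limma adjusted p = 0.791). Of 32 tested cell division genes, 1 (Birc5) met the filter through the Npy libraries alone and is left out of the next counts. Of the other 31, 28 had log2 fold changes below 0 and 3 above, with a median of -1.19. Over all tested genes 51.3% were above 0. None of the 31 passed in limma. At an unadjusted p under 0.05 there were 10, all with lower values in Pomc neurons, where 7.36% of all tested genes met this in either direction. Lin37 and Rbl2, subunits of complexes that time cell cycle genes and the highest of the list, averaged 46.4 ± 19.6 and 28.6 ± 8.27 TPM in Pomc neurons (SD, n = 4). In Npy neurons Lin37 had 41.6 and 31.2 TPM and Rbl2 had 29.3 and 26.2 TPM. Birc5, an inhibitor of cell death in mitosis that was picked after its values were seen and that met the filter through the Npy libraries alone, stood at 0.558 TPM in Pomc replicate 1 and at 0 in the other Pomc libraries, against 4.31 and 9.07 TPM in Npy neurons. Summed, the list reached 148 to 266 TPM in the Pomc libraries, against 406 and 265 TPM in Npy neurons, so that the sums overlapped. The oligodendrocyte lineage list summed to 71.9 to 116 TPM in the Pomc libraries, against 302 and 277 TPM in Npy neurons, with 10 of 10 genes in the table and Olig2 and Cspg4 listed at 0 in every Pomc library. Pdgfra, a receptor gene of oligodendrocyte precursors, reached at most 0.484 TPM in the Pomc libraries, against 83.7 and 77.5 TPM in Npy neurons. Pdgfra, Olig2, Sox10, Cspg4 and Gpr17 met the filter through the Npy libraries alone, so no test of them is given. Among progenitor genes, Fabp7, a lipid-binding protein gene of radial glia, had 1.61 to 61.6 TPM in the Pomc libraries, against 323 and 176 TPM in Npy neurons (limma adjusted p = 0.272). Nes, the intermediate filament gene nestin, had 14.6 to 26.4 TPM in the Pomc libraries, against 49.0 and 40.0 TPM in Npy neurons (limma adjusted p = 0.418). That list of 11 summed to 305 to 683 TPM in the Pomc libraries, against 645 and 428 TPM in Npy neurons. None of its 10 tested genes passed, and 4 log2 fold changes were above 0 and 6 below. Without Aldh1l1, which met the filter through the Pomc libraries alone, 3 were above 0 and 6 below. Vim, the highest of the list, had values in the other order (log2 0.75, limma adjusted p = 0.696). It stood at 299, 201, 254 and 530 TPM in the Pomc libraries, against 206 and 155 TPM in Npy neurons, with overlapping groups. Pax6 was above 0 in Npy replicate 1 alone, at 1.79 TPM. The 14 pan-neuronal genes summed to 7187 to 9207 TPM in the Pomc libraries, against 6272 and 5526 TPM in Npy neurons, with none passing and 5 at an unadjusted p under 0.05, all with higher values in Pomc neurons. The part of such cells in the Foxm1 and cell division values was not tested.

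Foxj1, the regulator of motile cilia (chromosome 11, 116330704 to 116335399), had 1.43, 1.64, 2.70 and 1.46 TPM in the Pomc libraries, against 2.33 and 4.81 TPM in Npy neurons. Pomc replicate 3 lay above the lower Npy library, and the log2 fold change was -0.67 ± 0.64 (limma adjusted p = 0.862). Of 15 tested motile cilia genes none passed in limma. An unadjusted p under 0.05 was met by 1, the axonemal gene Tekt1, beside 7.36% of all tested genes. Tekt1 had 11.2, 8.10, 11.6 and 5.10 TPM in the Pomc libraries, against 26.1 and 30.9 TPM in Npy neurons. Gmnc and Pifo, genes of multiciliated cells, were listed at 0 in all 6 libraries. The list summed to 277 to 352 TPM in the Pomc libraries, against 333 and 299 TPM in Npy neurons. Its highest genes, Tppp3 and the ciliary regulator gene Rfx3, averaged 94.7 ± 37.4 and 80.7 ± 16.9 TPM in Pomc neurons (SD, n = 4). In Npy neurons Tppp3 had 37.2 and 92.0 TPM and Rfx3 had 77.8 and 65.5 TPM.

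**Figure D4:**
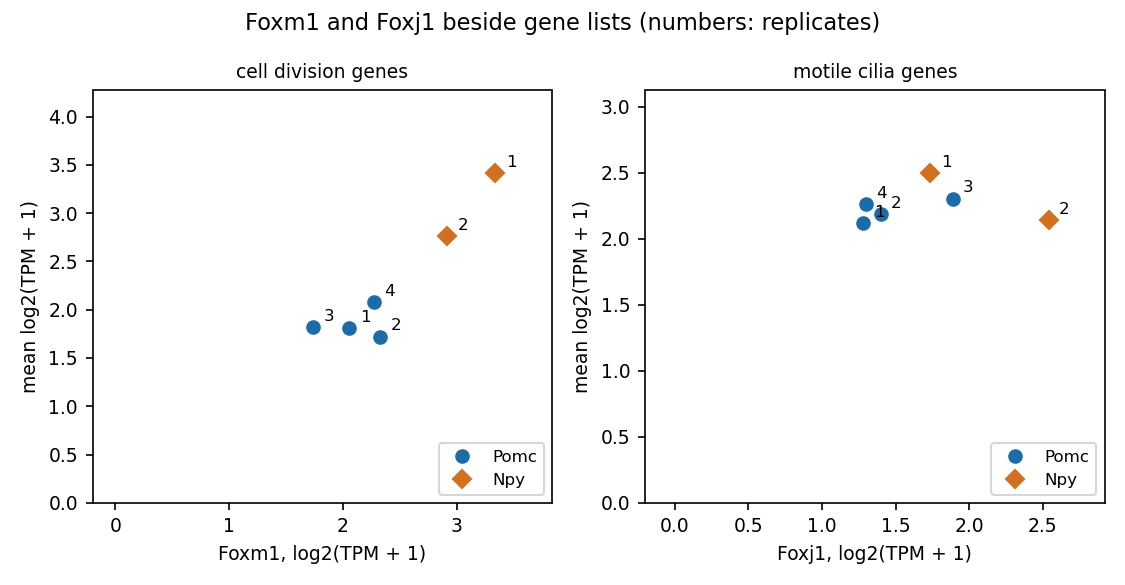
Level of Foxm1 and Foxj1 (x axes, log2(TPM + 1)) beside the mean log2(TPM + 1) of cell division and motile cilia genes (y axes), 1 point per library with its replicate number, Pomc in blue circles and Npy in orange diamonds. Both Npy libraries lie above the Pomc libraries in the cell division list, and the groups overlap in the motile cilia list.

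Forkhead genes of mesoderm, vessels and meninges were at or near 0. Foxc2, Foxf1 and Foxf2 were listed at 0 in every library. Foxc1, required for the formation of the meninges, reached 0.155 TPM in Npy replicate 2, and Foxs1, a gene of vascular mural cells, reached 0.565 TPM in Npy replicate 1. Foxq1, known in mice for its role in hair, was listed at 0 in all libraries except Npy replicate 2, at 7.89 TPM. Of its 4843 exon bases, 3200 overlap a gene on the opposite strand that is not in the table. Mural and meningeal genes other than forkhead genes summed to 16.5 to 35.4 TPM in the Pomc libraries, against 31.4 and 50.5 TPM in Npy neurons, with Dcn, Lum, Tbx18, Twist1 and Ranbp3l listed at 0 in all 6. Ptgds, a prostaglandin synthase gene of the meninges and the highest of the list, averaged 11.2 ± 9.16 TPM in Pomc neurons (SD, n = 4), against 1.84 and 0 TPM in Npy neurons. Npy replicate 2, the library with Foxq1, held 7.80 TPM of Kcnj8, a potassium channel gene of pericytes that was listed at 0 in the other 5 libraries. It also had the highest values of Vtn (6.13 TPM), Pdgfrb (4.75 TPM), Abcc9 (2.56 TPM), Rgs5 (2.24 TPM), Col3a1 (1.84 TPM) and Col1a1 (0.934 TPM). Other genes of the list were highest elsewhere. Notch3 had 8.63 TPM in Pomc replicate 4 against 4.59 TPM in Npy replicate 2. Col1a2 had 9.63 TPM in Pomc replicate 2 against 2.23 TPM in Npy replicate 2. Zic1, Tagln and Acta2 were listed at 0 in Npy replicate 2. The list's mean log2(TPM + 1) was 0.55 to 0.63 in the Pomc libraries, against 0.68 and 1.20 in Npy neurons. The part of mural cells in the Foxq1 value was not tested. Cspg4, which also marks oligodendrocyte precursors, was listed at 0 in every Pomc library, against 21.3 and 17.5 TPM in Npy neurons, and met the filter through the Npy libraries alone. None of the other 10 tested genes of this list passed in limma. At an unadjusted p under 0.05 there was 1, Ptgds, beside 7.36% of all tested genes.

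The last group holds genes of glands and the germ line. Foxr2, known in humans as an oncogene of brain tumours, stood at 2.85, 1.82, 5.25 and 0.200 TPM in the Pomc libraries, against 5.54 and 2.97 TPM in Npy neurons, with overlapping groups (limma adjusted p = 0.872). Foxr1, a gene of oocytes, had 0.461 TPM in Pomc replicate 2 only. Foxl2, a factor of the ovary and of pituitary gonadotrophs, was listed at 0 throughout, as were the pituitary genes Pou1f1, Lhb, Fshb, Cga and Pitx1. Tbx19, the factor of pituitary Pomc cells and the other gene of that list in the table, had 0.931, 9.30, 1.87 and 0 TPM in the Pomc libraries, against 1.76 and 2.76 TPM in Npy neurons, with overlapping groups.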

How the data were processed

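Fluorescently sorted Pomc and Npy neurons of mouse arcuate nuclei were sequenced with a stranded total RNA kit, per the labels. The authors deposited 1 table with a column for each sample and no unit in its header. Its values were taken as TPM deposited by the authors, because 6 of the 7 columns sum to 1000000 and are not whole numbers. Per the submitters' processing notes, the tools include HISAT2 and edgeR 3.8 and the build is mm10; what each tool did is not recorded there. The annotation and the use of strand are not given here. Depth is unknown, since TPM keep none.

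Libraries were grouped by their titles, and the column of Npy replicate 3 was left out. Both symbols that occur more than 1 time (4 rows) were removed. Genes with 1 TPM in at least 2 libraries were fitted with limma 3.58.1 in R 4.3.3 on log2(TPM + 1), with an intensity-trended prior variance. A fold change on this scale understates the change of low genes. P-values are two-sided, adjusted by Benjamini-Hochberg over all tested genes, and each log2 fold change (Pomc minus Npy) has its model standard error. The fit was tested on simulated data. Locations and exon overlaps come from GENCODE M21 (GRCm38).

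The forkhead genes and the companion lists were chosen with earlier results of these data known, and no list was tested as a set. A forkhead gene and a marker gene are not reported here and are left out of every count of forkhead or marker genes except the 32; they remain in the fit. Forkhead genes that passed the threshold or reached 5 TPM in any of the 6 libraries were named with each value, and of the companion lists those that passed and the 2 with the highest mean. Genes named beyond that rule, such as those at an unadjusted p under 0.05 and marker genes, were chosen after their values were seen. Alternatives were other filters, a pseudocount of 0.1, no trend, other scalings, a replicate block, Npy replicate 3 kept, and each library left out.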

Additional observations from a re-analysis of the deposited data

Results flagged for a closer look

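In each forkhead gene with any spread among the 4 Pomc libraries (22 genes), the library farthest from the others was set against the range of the group, and 7 genes stood out. Chance gives about 1 in 20. Pomc replicate 1 held 38.5 TPM of Foxo6, and the rest of the group 17.4 to 18.6 TPM. Pomc replicate 4 held 54.3 TPM of Foxp2 (the rest 36.3 to 38.6 TPM), and Pomc replicate 3 held 2.70 TPM of Foxj1 (the rest 1.43 to 1.64 TPM). In the other 4, the rest of the group had 0 TPM; any value then stands out, and the chance rate does not apply. These were Foxp3 at 0.506 TPM in replicate 3, and Foxb1 at 0.193 TPM, Foxa1 at 1.14 TPM and Foxr1 at 0.461 TPM, all in replicate 2.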

How the results depend on the processing

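The number of forkhead genes past the threshold was 0 as reported. It was 1 (Foxn2, adjusted p 0.0445) with Npy replicate 3 kept, and 0 to 1 (Foxp2) with a library left out; with the other settings it was 0. Over all genes 57 passed as reported, 33 without a filter, 37 with a pseudocount of 0.1, 205 with Npy replicate 3 kept, and 22 to 69 with a library left out. In the FOXO, FOXP partner, cell division, cilia and mural lists 2 genes passed (Nkx2-1, and Cspg4, which met the filter through the Npy libraries alone), 1 without a filter, 1 when 5 TPM were required in 3 libraries, 1 with a pseudocount of 0.1, 1 without a trend, 5 with Npy replicate 3 kept and 0 to 2 with a library left out. With the replicate block 12 genes passed, 0 of those lists, 3 arcuate identity genes, 0 mammillary body genes and 0 forkhead genes; the shared numbers are no pairing in the labels, and same-numbered libraries deviated together at r = -0.04 and -0.03. The block turned Foxj3 to 0.09. Foxk2 turned to -0.02 without short RNA genes and to 0.00 with median-of-ratios scaling. With a library left out, log2 fold changes that crossed or reached 0 ranged from -0.07 to 0.15 for Foxk2, -0.18 to 0.07 for Foxj3, -0.26 to 0.04 for Foxj2, -1.19 to 0.17 for Foxo4, -0.72 to 0.00 for Foxo3 and -0.50 to 0.24 for Foxk1. In all, 230 of the recomputed values of forkhead genes kept their direction and side of the threshold, 13 turned and 2 passed it. Foxo1 stayed between 1.17 and 1.56, Foxn2 between 1.26 and 2.02 and Foxp4 between 0.70 and 1.27 over the settings run. Where a count moved, the cause was not tested.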

Other observations

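Microglia and blood genes, a list of 10, were uneven among the Pomc libraries, with sums of 0.263, 35.7, 5.49 and 114 TPM, against 3.87 and 1.65 TPM in Npy neurons. The 35.7 TPM of Pomc replicate 2 were haemoglobin genes, with Hbb-bs at 24.5 TPM and Hbb-bt at 11.0 TPM. Pomc replicate 4, the highest, held 64.3 TPM of the red cell gene Hbb-bs. Of the microglia genes it held 22.7 TPM of the receptor gene P2ry12, which was listed at 0 in the other 5 libraries, 13.1 TPM of Csf1r and 6.55 TPM of Cx3cr1, while Aif1, C1qa and Ptprc were listed at 0 there. The same library had the fewest genes above 0 (12493) and the highest Foxp2 value of the 6. These genes were chosen after their values were seen, and their part in the Foxp2 value was not tested.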
